A study of Mus musculus with 4 samples.

Results

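The comparison described here is the loss of the growth hormone receptor (GHR) added to the loss of MDR2 in mouse liver. It was made between a pool of livers without GHR and MDR2, with the genotype label GHR/MDR2 Double knockouts, and a pool without MDR2 alone, labelled MDR2 knockout. Both pools, like the wildtype and GHR knockout pools set beside them, came from mice labelled male, 8 weeks old, and each held RNA from 3 snap-frozen livers on 1 whole-transcript Affymetrix array. MDR2 is absent on both sides, so what differs by design is GHR. The strain background and the cells in which each gene was deleted are not given in the sources used here. A gene entered the comparison when it had a row with exactly 1 gene symbol and the higher of the 2 arrays reached an intensity of 100. Where a gene had several rows, the one with the highest mean over the 4 arrays was taken. Of 19938 genes with such a row, 10524 were compared. The series title is about the effect of growth hormone resistance on the fibrosis that cholestasis brings, which this pair of pools addresses.

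Growth hormone binds GHR on hepatocytes, which activates the kinase JAK2 and the transcription factor STAT5. STAT5 enters the nucleus, binds DNA and drives genes such as Igf1, Igfals and the feedback inhibitors Cish and Socs2. The pulsatile growth hormone secretion of males also keeps a large set of liver genes at male levels and holds female-biased genes down. MDR2, the product of Abcb4, exports phospholipid into bile. Without it bile acids are unbuffered and injure the bile ducts, which leads to duct proliferation, inflammation and scarring around the portal tracts.

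With 1 array per genotype the differences below describe 2 pools, without a replicate check or a p-value. Where 4 intensities are quoted, the first is the wild-type pool, followed by MDR2-null, GHR-null and lastly the double-null pool, and levels of different genes are not compared with one another. Ghr intensities were 4944, 4485, 1395 and 935, 4.80-fold lower without GHR among the pools that lack MDR2. Abcb4, absent by design from both, was 663 and 689. Neither the deleted exons nor the exons probed are named in the labels, so these levels are a check of the genotypes only where the 2 overlap. Xist, made from the inactive X chromosome of females, had intensities of 16, 18, 1400 and 17, so it was high in the GHR-null pool, whose labels also say male. The Y-linked gene Kdm5d was 268, 212, 259 and 265, with the GHR-null value inside the range of the other pools. The main comparison does not use that pool. No detection calls were used here. Folds that involve an intensity under 100 may rest on background and are approximate.

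The promoters of a pair of growth hormone targets show what a STAT5 site looks like in sequence. They were picked from a larger chosen set because both genes were lower in the double-null pool and both carry the STAT5 element, TTCNNNGAA, next to their start. The same search found no such element in the windows of Igf1, Onecut1 or Mup3, which were also lower. The windows run from 250 bases before to 50 after an annotated start and come from RefSeq on GRCm38.p6, read 5′ to 3′ on the plus strand, with each match in capitals. The Cish window is chr9:107296409-107296708. The Igfals window, the other of a pair annotated for that gene, is chr17:24877981-24878280.
Cish: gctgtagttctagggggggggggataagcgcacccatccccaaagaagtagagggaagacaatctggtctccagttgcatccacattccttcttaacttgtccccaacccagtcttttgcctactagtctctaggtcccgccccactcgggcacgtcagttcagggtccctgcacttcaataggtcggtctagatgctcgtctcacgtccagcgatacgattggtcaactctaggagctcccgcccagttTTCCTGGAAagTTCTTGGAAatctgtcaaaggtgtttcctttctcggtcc
Igfals: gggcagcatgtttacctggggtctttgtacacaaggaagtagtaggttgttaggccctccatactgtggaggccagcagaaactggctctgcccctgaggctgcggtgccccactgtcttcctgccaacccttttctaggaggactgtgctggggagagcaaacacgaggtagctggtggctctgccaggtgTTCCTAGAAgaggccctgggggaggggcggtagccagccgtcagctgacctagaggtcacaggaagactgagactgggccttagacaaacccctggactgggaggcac

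The Cish window held 2 matches, TTCCTGGAA and TTCTTGGAA, beginning at the start and 11 bases after it. The Igfals window held 1, TTCCTAGAA, beginning 58 bases before the start. The Igfals window not shown also held 1, TTCTCAGAA, beginning 236 bases before its start. Cish intensities were 352, 320, 154 and 95, and those of Igfals were 1188, 856, 395 and 77, so both were lowest in the double-null pool. Of the genes compared, 164 (1.56%) were at least 2-fold lower in the double-null pool. Windows were matched for 125 of them, and 19 of their 164 windows (11.6%) held TTCNNNGAA. Among the 243 genes (2.31%) at least 2-fold higher it was 19 of 216 windows (8.80%), among all genes compared 710 of 10788 (6.58%), and among all windows RefSeq gave 2726 of 32851 (8.30%). Because the element reads the same on both strands, 1 search covers both. The AP-1 element TGANTCA was in 9.15% of windows of lower genes, 10.6% of those of higher genes and 5.26% of those of all genes compared. The TEAD element GGAATG, searched on both strands, was in 15.2%, 14.8% and 12.1%, and the E-box CACGTG in 7.93%, 9.26% and 10.2%. A match in so short a window is a description and not a binding site.

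In all, 243 of the 10524 genes (2.31%) were at least 2-fold higher in the pool without both genes than in that without MDR2 alone, and 164 (1.56%) at least 2-fold lower. With each array centred on the median of the genes passing the filter, the split was 187 higher and 188 lower, so which direction holds more genes depends on the scaling. Past 4-fold the order turned, with 36 genes (0.342%) higher and 53 (0.504%) lower. A difference of at least 8-fold was seen in 6 higher and 23 lower genes. The middle of the distribution was narrow: 95% of genes lay between -0.77 and 0.97 on the log2 scale, and the median was 0.06. As a gauge of noise, the disagreement between this difference and that of the GHR-null against the wild-type pool had a robust SD of 0.32, or 0.23 for a single difference. That figure contains real disagreement too and is no limit for a single gene. High and low genes differed in which way they went. Among the 2631 genes with the lowest mean level, 103 were at least 2-fold higher and 34 lower, and among the 2631 with the highest level 26 were higher and 59 lower. Of the genes past 2-fold, 96 of the 243 higher ones had an MDR2-null intensity under 100, and 46 of the 164 lower ones had a double-null intensity under 100. The genes next to the 2-fold limit included Cldn7 and Tgfb3 just inside (118 and 236, 81 and 162), Krt23 and Sstr2 just outside (171 and 340, 95 and 189), and, on the lower side, Onecut1 inside at 436 and 218 and Aspa outside at 194 and 99. At the level limit, 50 genes had a higher array of exactly 100, of which 1 was past 2-fold, and 43 had 99, of which 2 would have been.

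**Figure D1:**
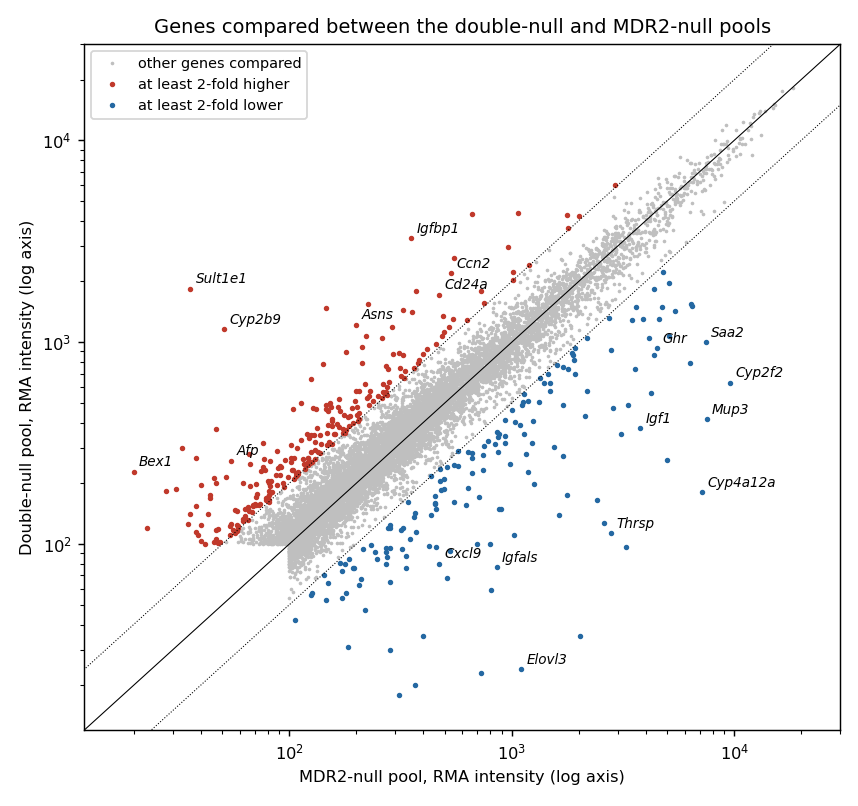
RMA intensity of each of the 10524 genes compared in the MDR2-null pool (horizontal) and the double-null pool (vertical), both on log axes. The solid line marks equal levels and the dotted lines 2-fold differences. The 243 higher genes (red) and the 164 lower genes (blue) lie outside the dotted lines, with Sult1e1 the farthest above and Elovl3 among the farthest below.

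Several targets of growth hormone were lower in the double-null pool, with large differences in Igf1 and Igfals. Igf1, the growth factor that liver releases into blood on growth hormone's command, had intensities of 3951, 3766, 1546 and 374, a 10.1-fold difference between the last pool and the MDR2-null pool. Igfals, the protein that holds IGF1 in its long-lived serum complex, was 11.1-fold lower. Both were lower still than with GHR loss alone. Socs2, another feedback inhibitor, departed from this pattern: at 782, 535, 243 and 605 it was within 1.5-fold of the MDR2-null level. The IGF-binding proteins Igfbp1 and Igfbp2, which rise when insulin is low, were 9.30-fold and 4.79-fold higher, at 308, 353, 1208 and 3284 and 691, 549, 1360 and 2628. Igf1r, the IGF1 receptor, was 81 and 166, and the receptor-binding adaptor Grb10 was 107 and 226. Over the list of the IGF system, 4 of 13 members compared were at least 1.5-fold higher and 2 lower, with a median of 0.33 (0.20 over all 17 measured). Over growth hormone signalling, 1 of 16 was higher and 3 lower, namely Ghr, Cish and Onecut1, a transcription factor of hepatocytes. For comparison, 755 of all genes compared (7.17%) were at least 1.5-fold higher and 409 (3.89%) lower. These shares stand beside every list count at 1.5-fold given below, and a count near them is no result about the list. For counts of members above or below 0, the share of all genes compared on each side was not computed. The median of all genes compared, 0.06, stands beside those counts. In the EGF receptor family Egfr, which binds EGF and related ligands, was 4.85-fold lower at 4315, 3596, 558 and 741, and the ligand Nrg4 was 2.38-fold higher. The other 9 members compared were within 1.5-fold.

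**Figure D2:**
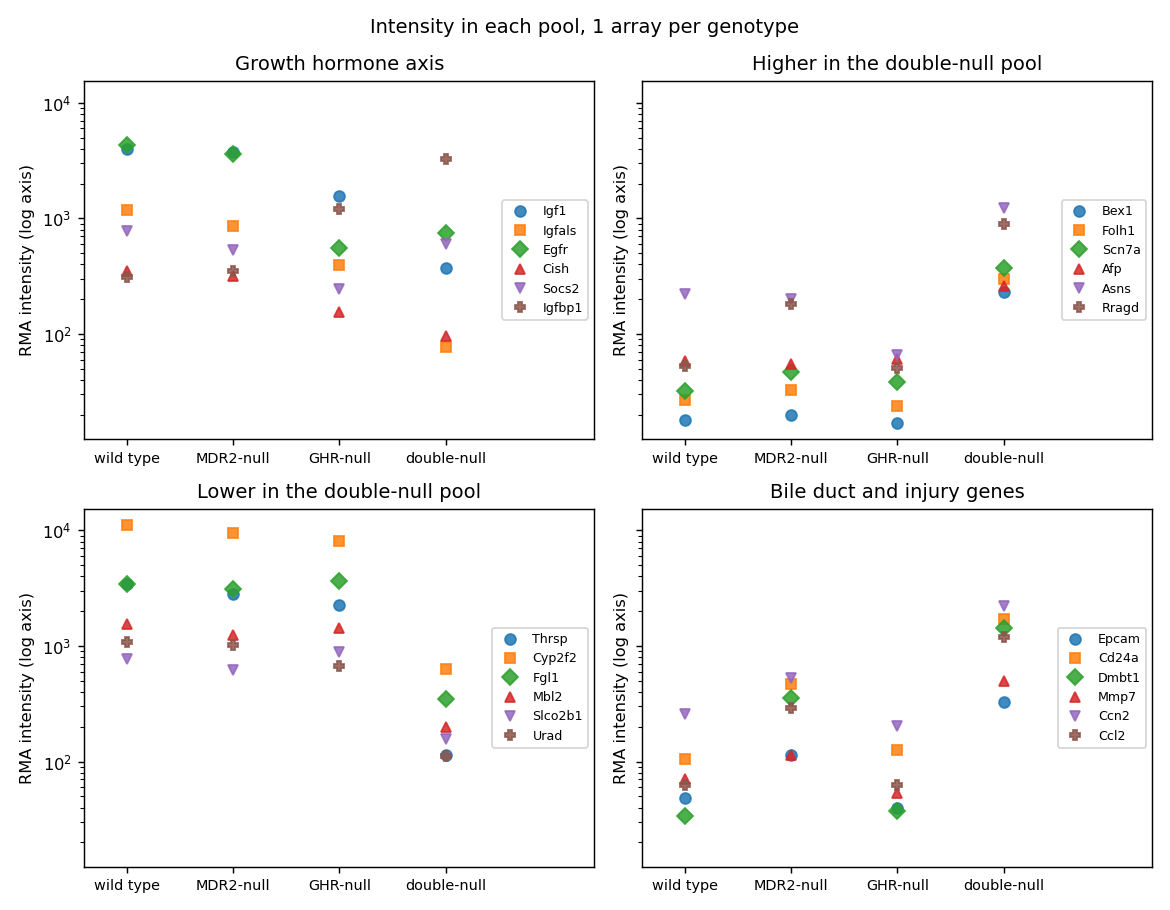
RMA intensity (log axis) of selected genes in each of the 4 pools, 1 array per genotype, so no error bar can be drawn. Igf1 and Igfals are lowest in the double-null pool while Igfbp1 is highest there, and Thrsp, Cyp2f2 and Fgl1 are far lower in that pool than in the other 3.

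Male-biased liver genes were lower in the double-null pool in 17 of 25 members compared by at least 1.5-fold, higher in 1, with a median of -1.92. Elovl3, a fatty acid elongase, had intensities of 2806, 1103, 28 and 24, and Cyp4a12a, a fatty acid hydroxylase, of 7891, 7139, 140 and 181. Both were far lower in each pool without GHR than in either pool with it. Cyp2f2 and the related monooxygenase Cyp2j5 showed another order, at 11138, 9594, 8133 and 631 and 6515, 5078, 5141 and 1079, and were far lower only in the double-null pool. Mup3, a pheromone-carrying urinary protein, was 8541, 7520, 2209 and 415. The 1 higher member was the desmosomal cadherin Dsg1c, at 166 and 478. Members of large families such as the urinary proteins, the Cyp4a12 and Ugt2b genes and the serum amyloids have near-identical copies, and how far their probes share signal was not tested.

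Female-biased genes were higher in 9 of 14 members compared and lower in 2, with a median of 1.12 (0.90 over all 23 measured). Only 14 of the 23 measured members reached the level limit, and some did so through the double-null array alone, so the count describes those members. Sult1e1, an estrogen sulfotransferase, was 20, 36, 1114 and 1845, the highest ratio of all genes compared at 51.2-fold. Abcd2, a peroxisomal fatty acid transporter, was 280, 146, 2041 and 1473. The steroid hydroxylase Cyp17a1 and the P450 gene Cyp2b9 were 257, 202, 4980 and 438 and 71, 51, 5952 and 1162. Both were higher than in the MDR2-null pool but far below the GHR-null pool, the one with Xist at 1400. The lower members were Cyp2b10, a target of the drug-sensing receptor CAR, at 472, 364, 1677 and 136, and the neurotrophin receptor Ntrk2, at 74, 284, 49 and 96.

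Enzymes that metabolise steroids and drugs were lower more often than higher in most families. Of 55 Cyp genes compared, 12 were at least 1.5-fold higher and 19 lower. Among the higher ones was Cyp2c37, at 1135, 664, 5674 and 4293, and Cyp2a22, at 211, 212, 4368 and 948; among the lower ones Cyp2d13, at 2709, 1702, 2158 and 488. Ugt genes, whose enzymes attach glucuronic acid, were at least 1.5-fold lower in 6 of 10 and higher in none (median -1.32). Ugt2a3 was 3523, 2844, 2397 and 473 and Ugt2b37 406, 512, 192 and 68. Sulfotransferase genes were lower in 4 of 7, with Sult2a8 at 3605, 1781, 1861 and 176 and Sult1e1 the only one higher. The carboxylesterases, which cleave esters of drugs and lipids, included some of the largest drops. Ces3b was 4992, 3258, 1105 and 97, Ces3a 7054, 6343, 2054 and 787 and Ces1f 4195, 2138, 3216 and 429. With flavin monooxygenases they made up a list with 6 of 20 members lower and 1 higher. Glutathione transferase genes were mixed, 2 of 17 higher and 2 lower. Hydroxysteroid dehydrogenases were lower in 4 of 13 and higher in 1. Hsd3b2 was 2131, 880, 427 and 150 and Hsd17b2, which inactivates estradiol and testosterone, 3500, 2798, 2428 and 911, while Hsd17b6 was 2.07-fold higher. Cyp26a1, which clears retinoic acid, was 629, 369, 1877 and 143.

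Lipid synthesis genes were lower in the double-null pool. Thrsp, which promotes lipogenesis, was 3449, 2796, 2274 and 113, a 24.7-fold difference from the MDR2-null pool. The fatty acid synthesis list held 26 genes, of which 10 passed 1.5-fold downward and 1 upward (median -0.32). The lower ones ran through the pathway: the citrate lyase Acly was 1.72-fold lower, the carboxylase Acacb 2.38-fold, the synthase Fasn 1.83-fold, at 2720 and 1490, and the elongase Elovl6 1.54-fold. Mlxipl, encoding the sugar-responsive factor ChREBP, was 1.84-fold lower, and Pklr, the liver pyruvate kinase that it controls, 2.34-fold. Scd2, the desaturase isoform of fetal liver and brain, was the higher one, at 138, 221, 777 and 1076. Cholesterol synthesis and uptake genes were below 0 in all 21 members, between -1.06 and -0.06 on the log2 scale. Of these 8 passed 1.5-fold, led by the sterol isomerase Ebp at 1462 and 699. Their median was -0.36, against 0.06 over all genes compared.

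Lipid use and transport were less uniform. Of 29 genes of fatty acid oxidation and ketogenesis 5 were higher and 1 lower, with Cyp4a14 at 153, 40, 4748 and 196 and Cyp4a10 at 557, 150, 2292 and 389. Cyp4a10, Cyp4a14 and Cyp4a31 were lower in the MDR2-null than in the wild-type pool, and the double-null value of Cyp4a10 was still below wild type. The male-biased Cyp4a12a and Cyp4a12b went the other way. Fabp1, the main fatty acid binding protein of liver, was 7212 and 4297, and the intestinal form Fabp2 was 1251, 530, 871 and 92. Lpl, which frees fatty acids from lipoproteins, was 373, 730, 565 and 1801. Among 23 apolipoprotein and lipoprotein genes 3 were lower and 1 higher. Apoa4 was 3983, 4119, 2227 and 1053, and Angptl8, an inhibitor of lipoprotein lipase, 966, 631, 1736 and 1287.

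Bile acid genes differed in both directions. The 15 synthesis genes compared included 4 lower and 2 higher by 1.5-fold (median -0.23). Cyp7a1, the entry step of the classical pathway, was 2703, 3732, 2621 and 2735, within 1.5-fold. Cyp8b1, which makes cholic acid, was 1666, 1229, 1036 and 316, and Cyp7b1 of the alternative pathway 4966, 3326, 763 and 489. Cyp39a1, a hydroxylase of oxysterols that is also on the female-biased list, had the largest difference of these genes, 6.85-fold higher at 266, 226, 1359 and 1549. Scp2, which cleaves the side chain, was 5793, 5112, 1884 and 1960, low in both pools without GHR. Of 20 transporters 4 were lower and 4 at least 1.5-fold higher. The lower ones included carriers that take up bile acids and anions from blood, with Slc10a1 at 8532, 6069, 8455 and 3144, Slco2b1 at 766, 622, 884 and 157 and Slco1a1 at 4072, 2419, 372 and 165. Slco1a4, also an uptake carrier, was 3.08-fold higher. The efflux pumps Abcb1a, Abcc4 and Abcg5 were 3.31-fold, 2.30-fold and 2.02-fold higher, with Abcb1a at 102, 152, 341 and 503. The bile acid receptor Nr1h4 (FXR) was 1271 and 781, 1.63-fold lower.

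Hepatocyte marker genes as a whole did not separate the pools: 1 of 18 was at least 1.5-fold lower, Asgr1, and none higher, and the summed intensity of the list was 158027 without MDR2 and 157864 without both genes. Other hepatocyte functions differed gene by gene. Of 27 hepatocyte transcription factors 4 were lower and 3 higher, with Gata6 at 316, 371, 477 and 730 and Esr1, the estrogen receptor, at 401, 359, 460 and 193. Periportal genes were lower in 6 of 19 and higher in none. Besides Cyp2f2 and Igfals these were Apoa4, G6pc, Pigr and Hal. G6pc, the last step of glucose release, was 4661, 4743, 3488 and 1487. Of 23 pericentral genes 3 were lower and 3 higher, the lower including the glutamine synthetase Glul at 3781, 4363, 3705 and 1845. Ppargc1a, a coactivator of glucose production, was higher, at 287, 228, 606 and 542. Among 45 urea cycle and amino acid breakdown genes 5 were lower and 1 higher, with Csad, which makes the taurine of bile salts, and Hal besides Glul among the lower.

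Asns, which makes asparagine, differed in opposite directions with and without MDR2: its intensities were 222, 200, 66 and 1219. In the list of amino acid response and ER stress it was the only one of 30 members at least 1.5-fold higher, against 6 lower. Chac1, another amino acid response gene, was lower, at 154 and 101. Rragd, a GTPase that relays amino acid supply to mTORC1, was 53, 180, 51 and 894. The lower members were mostly ER chaperones and folding enzymes: Creld2 was 1274, 1796, 838 and 740, Hyou1 1816, 1930, 1310 and 935 and Sdf2l1 1478, 1871, 934 and 886. Pdia4 and Pdia6, disulfide isomerases, were 1.53-fold and 1.60-fold lower.

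Secreted plasma proteins were lower in 9 of 35 members and higher in 2 at 1.5-fold. The acute phase serum amyloids were led by Saa1, at 1181, 1631, 224 and 139, and Saa2, at 4723, 7446, 1169 and 1003, and the pentraxin Apcs was 1537, 1189, 1303 and 229. Fgl1, a liver fibrinogen-like factor, was 3461, 3112, 3634 and 351, so that only the double-null pool was low. Hamp2, a close copy of the iron hormone gene Hamp, was 588, 142, 2528 and 782. Complement and coagulation genes were lower in 10 of 44 and higher in 4. The lower ones included the terminal complement genes C6, at 2597, 4355, 385 and 860, C8a, at 3984, 4602, 713 and 1310, and C8b, at 5285, 4768, 1869 and 2217, and the lectin Mbl2, at 1543, 1254, 1438 and 199. The higher ones were the macrophage genes C3ar1, at 91, 316, 179 and 742, and C1qc, and the coagulation initiator F3 with its inhibitor Tfpi. C6 and C9 also lie near Ghr on its chromosome, 3 and 9 places away among the genes compared in RefSeq order. Of the 11 nearest such genes (fewer than 10 lie on 1 side), 2 were at least 1.5-fold lower, C6 and C9, and 8 were within 1.5-fold. The other 1, C7, was higher, at 62, 107, 68 and 218. C7 is a terminal complement gene too but is not on the complement list, so these genes did not all go down. The nearest on each side, Selenop and Fbxo4, were 8611 and 7658, and 233 and 254. Of the other clotting and inhibitor genes, the serpins had 2 of 17 members higher and 3 lower, with the thyroxine-binding globulin Serpina7 at 504, 1071, 748 and 4354.

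**Figure D3:**
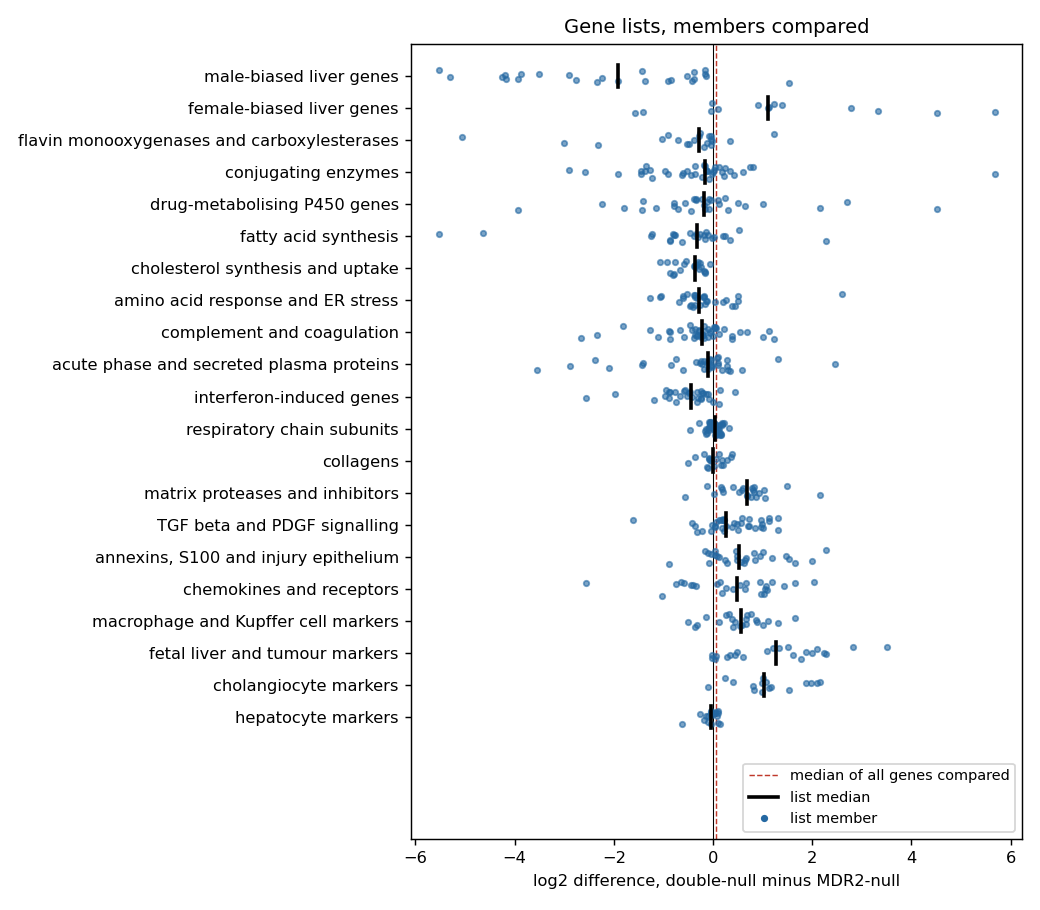
Log2 difference, double-null minus MDR2-null, of each list member compared (points) with the list median (black bar). The dashed line is the median of all genes compared, 0.06. Cholangiocyte and fetal lists lie to the right and male-biased genes to the left, while collagens and respiratory chain subunits stay within 1.5-fold.

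Genes of bile duct cells were higher in the double-null pool on top of their level with MDR2 loss alone. Of 16 cholangiocyte markers compared 13 passed 1.5-fold upward and none downward (median 1.03), and the summed intensity of the 18 measured was 1801, 3002, 2018 and 6362. The adhesion molecule Epcam was 48, 113, 40 and 329, the duct keratin Krt19 71, 122, 79 and 214, and Cd24a, a surface protein of progenitor and duct cells, 106, 470, 126 and 1722. In each, the MDR2-null value lay between the wild-type and the double-null values, and the GHR-null value was close to wild type. The transcription factors Sox9 and Sox4 and the Notch ligand Jag1 were 1.98-fold, 2.26-fold and 1.98-fold higher. In bulk tissue more cells of a type and more RNA per cell cannot be told apart.

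Injury-associated epithelial genes were also higher. Of 28 annexin, S100 and related genes 13 were higher and 1 lower (median 0.53, or 0.46 over all 35 measured). Some, including Anxa13, entered only because the double-null array reached 100, so the count describes the members compared. Dmbt1, a mucin-like defence protein, was 34, 357, 37 and 1419, the lysosomal tetraspanin Cd63 was 122, 371, 171 and 1804, and Anxa13 was 51, 82, 57 and 257. The lower one was S100a10, at 4358, 4691, 3658 and 2549. Claudins of tight junctions were higher in 3 of 9, Cldn4, Cldn6 and Cldn7, and lower in none. The list of Notch, Wnt and YAP targets had 9 of 26 members higher and none lower. Ccn2, a matricellular protein of scar formation, was 258, 532, 202 and 2197 and the cardiac-type ankyrin gene Ankrd1 was 32, 83, 36 and 206.

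Fetal liver and tumour genes were higher by 1.5-fold in 14 of 22 members compared, with none lower. Their median was 1.27, against 0.46 over all 32 measured members, since several, including Afp, entered only because the double-null array reached 100. Bex1, an X-linked adaptor, was 18, 20, 17 and 229. Afp, the fetal counterpart of albumin, was 58, 55, 61 and 259, the RNA-binding protein Igf2bp3 46, 38, 72 and 267, the proteoglycan Gpc3 50, 44, 74 and 175 and the imprinted gene Peg3 77, 75, 117 and 230. For Bex1, Afp and Peg3 the MDR2-null and wild-type intensities were close. All were under 100, where background may hide a difference, so a contrast with Epcam and Cd24a cannot be drawn from them. Cd24a and Tspan8 are on this list and among the cholangiocyte markers too.

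Matrix genes differed by class. Of 18 collagens compared none was 1.5-fold apart in either direction, and their log2 differences ran from -0.50 to 0.37. The 23 proteases and inhibitors had 15 higher and none lower (median 0.69, or 0.46 over all 32 measured). Mmp7, a protease of epithelium, was 71, 113, 54 and 502, Mmp2, made by fibroblasts, 142, 287, 157 and 544, and the inhibitor Timp1 40, 129, 42 and 229. Glycoproteins and crosslinking genes were higher in 10 of 35 and lower in none, among them the small proteoglycan Lum, at 199, 417, 241 and 929, and the fibulin-like Efemp1, at 292, 324, 382 and 867. In the TGF beta and PDGF list 13 of 37 were higher and 1 lower. The ligands Tgfb2 and Tgfb3 were 46, 116, 48 and 229 and 49, 81, 55 and 162, the receptor Tgfbr2 250, 477, 448 and 938, the PDGF ligand Pdgfd 47, 72, 67 and 178 and the PDGF receptor Pdgfra 149, 205, 211 and 446. Inhbe, an activin subunit of hepatocytes, was the lower one, at 750, 869, 652 and 285. Stellate cell markers were split, 3 of 19 higher and 2 lower, with Reln 1.75-fold higher, Lrat, which stores vitamin A, 1.55-fold lower and Acta2, the actin of myofibroblasts, at 150, 324, 216 and 223. Their summed intensities were 10947 and 13557.

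Some macrophage markers and chemokines were higher and others were not. Of 22 macrophage and Kupffer cell markers 10 passed 1.5-fold upward and none downward (median 0.56, or 0.54 over all 23 measured). Some, including Ms4a7, Gpnmb and Itgam, entered only because the double-null array reached 100, so the count describes the markers compared. Summed intensities of those measured were 6950, 15199, 9545 and 20876. Lyz2, the macrophage lysozyme, was 847, 2879, 977 and 5243, and Cx3cr1, a receptor of monocyte-derived cells, 72, 168, 62 and 525. Chemokines and their receptors were higher in 12 of 26 and lower in 5, the lower including the interferon-induced Cxcl9 and Cxcl11. Several of the higher ones, including Ccl3, Cxcl2 and Ccl20, entered only because the double-null array reached 100, so the count describes the members compared. The list median was 0.48, or 0.40 over all 39 measured, and 0.09 under the processing alternative that lowered it most. Ccl2, which recruits monocytes, was 63, 290, 63 and 1192, and Ccl20, made by duct epithelium, 51, 96, 59 and 260. Cytokine and adhesion genes were higher in 12 of 33 and lower in none (median 0.40, or 0.35 over all 42 measured). The oncostatin M receptor Osmr was 86, 129, 112 and 346 and the integrin Itgb8 40, 80, 62 and 205. Itgb8 entered only because the double-null array reached 100, so that count too describes the members compared. Of 19 T and NK cell markers measured, 16 were under 100 in both pools, as were 13 of 14 neutrophil markers and 10 of 13 B and plasma cell markers. Jchain, the joining chain of plasma cells, was an exception at 53, 88, 91 and 289. Endothelial markers had 1 of 20 higher, Cd34, and sums of 9766 and 9406. The part of changing cell numbers in the duct, matrix and macrophage results was not tested.

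Interferon-induced genes were lower in the double-null pool. Of 32 compared 11 were at least 1.5-fold lower and none higher, and 28 lay below 0 and 3 above. The list median was -0.44, against 0.06 over all genes compared. Cxcl9, a T cell attractant induced by interferon gamma, was 216, 470, 367 and 80. Iigp1, an immunity-related GTPase, was 1219, 978, 789 and 249, and Ifit3 303, 283, 268 and 124. The guanylate-binding proteins, interferon-induced GTPases that attack vacuoles of intracellular pathogens, were below 0 in all 7 members compared, and 6 of the 7 were at least 1.5-fold lower. Gbp3, Gbp4 and Gbp7 count in both groups. Intensities of the 7 spanned 139 to 899 without MDR2 and 86 to 167 without both genes, with Gbp11 at 574, 899, 327 and 149. A row left out because it carries Gbp4, Gbp6, Gbp8, Gbp9, Gbp10 and Gbp11 together was 408, 614, 438 and 201. How far the probes of this family share signal was not tested, so the 7 may not be separate results. In the GHR-null against the wild-type pool the interferon list had a median of 0.09, and the Gbp family one of 0.37. The antigen-presenting genes of MHC class II did not share the lower levels: 2 of 8 were higher, H2-Aa at 654, 1826, 970 and 2763 and Ctss, a protease that also counts among the macrophage markers.

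Cell cycle, respiratory chain and proteasome genes differed little. None of 25 cell cycle genes compared was at least 1.5-fold higher and 1 was lower, Mcm10, which also sits on the male-biased list. All 47 respiratory chain subunits and all 37 proteasome subunits were within 1.5-fold. Of 17 circadian clock genes, 1 was higher, Per3, and 1 lower, the repressor Nr1d1, at 1042, 1136, 2030 and 556. Those counts were near the shares of all genes compared, 7.17% higher and 3.89% lower. Among 28 antioxidant genes 6 were higher, with the metallothioneins Mt1 and Mt2 2.40-fold and 2.11-fold higher, at 883, 544, 1892 and 1308 and 3599, 2000, 5599 and 4225. Small nucleolar RNAs, which guide the modification of ribosomal RNA, were above 0 in 33 of 34, and 9 passed 1.5-fold. Their median was 0.38, against 0.06 over all genes compared. Of these RNAs 26 had their lowest intensity of the 4 pools in the MDR2-null pool, and their median against wild type was -0.76 in that pool, -0.50 with GHR loss alone and -0.35 with both losses. Ribosomal protein genes were higher in the double-null pool in 50 of 54, with a median of 0.26 and none past 1.5-fold, and 35 of the 54 were lowest in the MDR2-null pool. The median of the ribosomal protein genes against wild type was -0.22 in the MDR2-null pool, -0.18 with GHR loss alone and 0.03 with both losses. Both families thus stood below wild type on the MDR2-null and GHR-null arrays. The part of single arrays in their differences was not tested.

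Among the 25 genes with the highest ratios, several belong to no list. Folh1, a peptidase that cleaves folate and glutamate peptides, was 27, 33, 24 and 301. The sodium channel Scn7a was 32, 47, 38 and 371 and the calcium channel subunit Cacna1b 43, 46, 39 and 213. Lepr, the leptin receptor, whose soluble form the liver releases, was 32, 28, 85 and 183, Cap2, an actin regulator, 62, 126, 218 and 659, the adhesion receptor Adgrg7 24, 31, 24 and 188, and Fam83b 16, 23, 19 and 120. Folh1, Scn7a, Adgrg7, Fam83b and Cacna1b were under 50 in every pool but the double-null one. Among the 25 lowest were the serpin pseudogene Serpina4-ps1, at 3380, 731, 29 and 23, Obp2a, an odorant-binding lipocalin, at 422, 311, 19 and 18, Keg1 at 3317, 2591, 604 and 128, the urate pathway enzyme Urad at 1076, 1025, 670 and 111, Paqr9 at 1835, 797, 1148 and 100, Wfdc21 at 1446, 808, 477 and 59, the peroxisomal hydrolase Nudt7 at 5262, 4231, 1840 and 562 and the acetyltransferase relative Nat8f5 at 231, 283, 39 and 30. Serpina4-ps1, Obp2a and Nat8f5 were low in both pools without GHR, while Urad and Paqr9 were far lower without both genes than without GHR alone. The 25 lowest leave out the predicted locus Gm21286, which had the lowest ratio of all genes compared, at 3238, 2033, 2057 and 35.

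The GHR-null and wild-type pools, which share no array with the main pair, show the same loss with MDR2 present. Of 10052 genes that reached 100 on either of those arrays, 107 (1.06%) were at least 2-fold higher without GHR and 99 (0.985%) lower, and at 1.5-fold 428 (4.26%) were higher and 249 (2.48%) lower. Of the 243 higher genes, 196 (80.7%) were also higher without GHR alone, where 66.1% of all 10524 genes were, and 72 (29.6%) were higher there by at least 1.5-fold, against 4% of all. Of the 164 lower genes 136 (82.9%) were also lower, against 32.9% of all, and 90 (54.9%) by at least 1.5-fold, against 2.3%. A larger share of the higher than of the lower genes stayed within 1.5-fold with MDR2 present, 167 (68.7%) against 66 (40.2%). This difference was not tested. Leaving out members of the sex-biased lists, 187 of 234 higher genes (79.9%) and 120 of 147 lower genes (81.6%) kept their sign. That step left 234 of the 243 higher and 147 of the 164 lower genes in place, so the shares could move little. The GHR-null pool is the one with Xist at 1400, and the part of female cells in these shares was not tested. Of the 25 lowest genes, predicted loci left out, 23 were also at least 1.5-fold lower in the GHR-null pool. The other 2, Cyp2f2 and Fgl1, were within 1.5-fold. Of the 25 highest, 15 were at least 1.5-fold higher there, 9 were within 1.5-fold and 1, Asns, was lower.

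**Figure D4:**
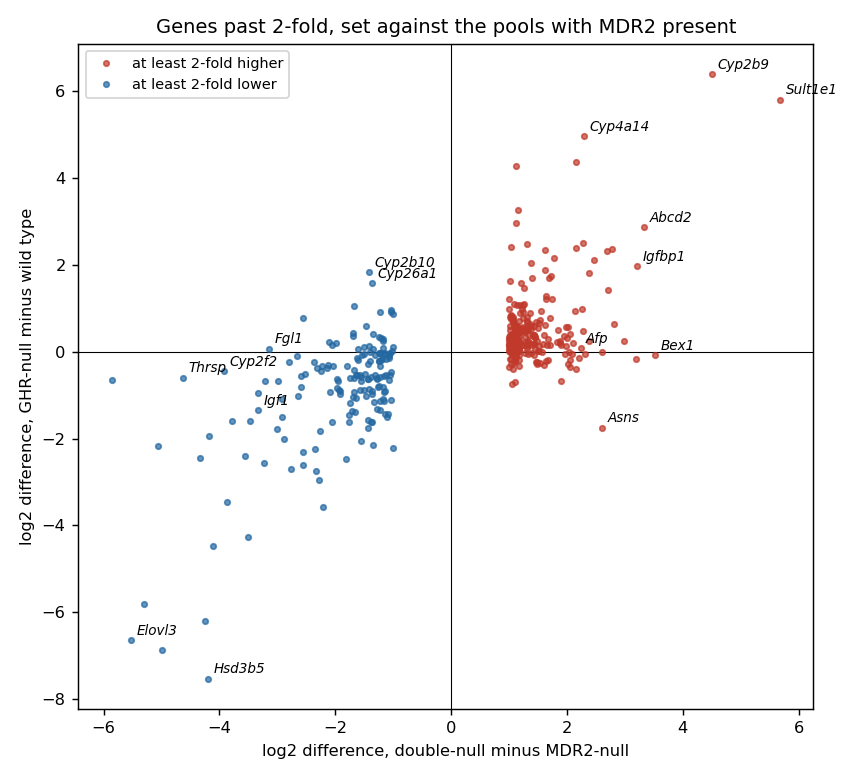
Each of the 407 genes past 2-fold, with its log2 difference between double-null and MDR2-null (horizontal) and between GHR-null and wild type (vertical). Most blue points lie below 0 and most red points above it, and the bulk of the red points stay within 1 unit of 0 on the vertical axis. Asns lies among the lowest red points and Cyp2b10 and Cyp26a1 highest among the blue.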

How the data were processed

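Liver RNA of 4 genotypes was measured, 1 pool of 3 livers and 1 array each. The deposited values are linear RMA intensities per probe set, made by the authors with Affymetrix Expression Console 1.1, per the submitters' processing notes. RMA in its usual form matches the distributions of the arrays, so a global shift is not visible. Rows with 1 symbol in the platform annotation (21789 of 35556) were used, and symbols were updated through RefSeq. Intensities were taken to log2 and subtracted between arrays. With 1 array per genotype no p-value was computed. The scripts were tested on simulated data.

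Named genes were the top and bottom 25 by log2 difference except predicted loci, per list at most the 4 members that differed most in size, a fixed panel, and genes at the limits. Members and lists were chosen with earlier results of these data known. Abcg5, Acly, C1qc, C3ar1, C7, C8b, C9, Chac1, Cyp17a1, Cyp2b10, Cyp2d13, Dsg1c, Elovl6, F3, Fasn, Fbxo4, Gbp3, Gbp4, Gbp7, Gbp11, Gpc3, Hsd17b6, Igf1r, Lyz2, Mmp2, Ntrk2, Pdia4, Pdia6, Peg3, Pigr, S100a10, Selenop, Slc10a1, Sox9, Tfpi, Tgfb2, Tgfbr2 and Timp1 lie outside that rule and were chosen after their values were seen. Alternatives covered the level filter, centring, cyclic loess (limma 3.58.1), the row chosen and the threshold. The shares without sex-biased genes were added after seeing the data.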

Additional observations from a re-analysis of the deposited data

Results flagged for a closer look

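For 12 genes past 2-fold, the difference made by GHR loss ran in opposite directions without MDR2 and with it, each by at least 1.5-fold. They were 4 of the 243 higher genes, where 2.3% of all genes compared were at least 1.5-fold lower without GHR alone. The other 8 were among the 164 lower genes, where 4% of all were at least 1.5-fold higher. Such counts are not far from those shares, so they are no result about these genes as a set. These opposite differences come from 1 array per genotype and were not tested. Of those higher in the double-null pool, Asns had log2 differences of 2.608 (double-null minus MDR2-null) and -1.750 (GHR-null minus wild type), the order kept below, Adgrf1 1.900 and -0.675, Zbtb16, a transcriptional repressor, 1.095 and -0.710, and Snora69 1.053 and -0.750. Among the lower genes were 2 interferon-induced chemokines, Cxcl9 at -2.555 and 0.765 and Cxcl11 at -1.031 and 0.913. The P450 genes Cyp2b10 and Cyp26a1 had -1.420 and 1.829, and -1.368 and 1.577. The clock repressor Nr1d1 had -1.031 and 0.962. Acss3 had -1.682 and 1.043, Trhde -1.229 and 0.914, and Tm6sf2, which loads lipid onto lipoproteins, -1.009 and 0.871.

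Rows that carry several gene symbols were left out of the comparison. Of 812 such rows at the level limit, 16 were at least 2-fold higher and 29 lower. Among the genes compared 2.31% were higher and 1.56% lower. Many of the lower rows repeat the same symbols, some with identical intensities, so they are not separate results. The 3 lowest named below carry urinary protein genes and pseudogenes: the row of Mup-ps15 and Mup-ps12 had a log2 difference of -3.396, that of Gm21286, Mup-ps15, Mup16, Mup-ps12 and Mup6 one of -3.328, and that of Gm21286, Mup-ps15 and Mup-ps12 one of -3.197. The row of Mir675 and Supt6 was higher by 3.836, and its signal cannot be assigned to either gene.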

How the results depend on the processing

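Of the counts of genes past 2-fold and the same-sign shares recomputed under the alternatives, 26 stayed close to the reported value (counts within 1.5 times, shares within the 95% Wilson interval) and 4 moved. For medians and single genes, close meant a move under 0.23 on the log2 scale. List medians stayed close in 394 cases and moved in 15, and all 904 recomputed differences of the 226 named genes stayed close. The named genes were recomputed only under cyclic loess, the centrings and the mean of a gene's rows. Centring shifts all genes alike, and only 999 of 19938 genes have several rows, so for named genes this check could show little. With the level limit raised to an intensity of 329, the 75th percentile, 115 genes were at least 2-fold higher. At a 1.5-fold threshold 755 were higher and 409 lower. Centring each array on the median of the genes passing the filter lowered the share of higher genes with the same sign without GHR alone to 73.8%. That centring also moved the median GHR-null minus wild-type difference of the genes compared from 0.09 to -0.02. The 66.1% of all genes given above therefore does not stand beside 73.8%, and the share of all genes under this centring was not counted. Cyclic loess gave 224 higher and 174 lower genes. Medians of 16 lists changed sign under an alternative. Most lay near 0, but those of the EGF receptor family (0.16 to -0.27), B and plasma cell markers (0.27 to -0.32) and neutrophil markers (0.46 to -0.12) did not. No direction is drawn here from these medians. Leaving out a replicate was not possible with 1 array per genotype. No paired analysis was possible because each genotype has 1 array and the labels give no replicate number. No detection calls were used, so values under 100 limit the folds of low genes most.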
